A study of Mus musculus with 24 samples.

Results

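Ribosomal protein genes were described in the inguinal (number 4) mammary glands of female C57BL/6 mice, from which the lymph node had been taken out. The members were all non-control probes on the array whose gene name has the form Rpl or Rps followed by a number and at most a few of the letters a, l, x and y, or is Rplp0, Rplp1, Rplp2 or Rpsa, so that kinases named Rps6k and pseudogenes named as such are left out. That rule took 190 of 56605 probes, for 86 of 36591 gene names. A gene was tested if it had a probe that, in some group, stood well above background on 80% or more of the arrays, and its brightest such probe stood for it. Of the members, 84 passed, with 33 genes of the small and 51 of the large subunit, among 22382 genes tested in all. Rpl3l and Rpl10l, paralogs of Rpl3 and Rpl10, did not pass and were well above background on 9 and 2 of 24 arrays.

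The cytoplasmic ribosome is built from ribosomal RNA and one copy of most ribosomal proteins per particle, and the genes for these proteins are known to be expressed together. Their messenger RNAs begin with a run of pyrimidines, the terminal oligopyrimidine (TOP) tract, through which mTOR signalling controls their translation. The mammary gland forms secretory alveoli during pregnancy and then makes large amounts of milk protein. Growth hormone and prolactin signals are damped by SOCS2 in a feedback loop.

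The 4 groups were mice carrying the SOCS2 R96C knock-in on both alleles at pregnancy day 18 (n = 5), wild-type mice at that day (n = 5), knock-in virgins at 8 weeks (n = 7) and wild-type virgins at 8 weeks (n = 7). The age of the pregnant mice is not given in the labels, so age and pregnancy cannot be told apart. Each array is 1 animal, and the animals' numbers all differ. Cy3-labelled RNA was read on 1-colour arrays, which cannot show a change of 1 base, and the genotypes are taken from the labels.

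Of 59305 non-control spots, 33374 to 57003 on each array stood well above background and 0 were saturated. The highest count belonged to knock-in virgin 376, whose negative-control signal was 332 against 19.4 to 41.4 on the other arrays. Knock-in virgin 198 had a mean of −3.82 over 17 luminal epithelial markers, where the median of its group was 0.81, and a skeletal muscle score of 7.23 over 12 genes, where wild-type virgin 320 had 6.76 and knock-in day-18 mice 211 and 184 had 5.69 and 4.29. Knock-in day-18 mouse 184 had 43055 spots well above background. Mice 376, 198 and 184 were kept, and several results that rest on them are also given without them. Mice 320 and 211 were left out only singly, so no fit left out every gland with a high muscle score. Slides 1, 2 and 3 held 8 arrays each, with all 4 groups on every slide.

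Do ribosomal protein genes change between the virgin gland and late pregnancy? On the main scale, log2 signal minus the 75th percentile of the array's spots, nearly all of them read higher at day 18, and by nearly the same amount. In knock-in mice 80 of 84 members were higher and 2 lower, against a background of 22.9% of all genes called higher and 20.3% called lower. In wild-type mice 77 were higher and 2 lower, where 20.9% of all genes were called in each direction. The median difference of the members was 1.09 in knock-in and 0.94 in wild-type mice, while the median of all genes was 0.05 and 0.01. Calls are at an adjusted p under 0.05 from limma with Benjamini-Hochberg adjustment over all genes.

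The median of the 84 genes on each array shows the size of the shift against the spread between mice. It ran from 6.90 to 7.30 in knock-in day-18 glands, with a median of 7.14, and from 4.43 to 6.55 in knock-in virgins, with a median of 6.30. Wild-type day-18 glands ran from 6.96 to 7.52, with a median of 7.32, and wild-type virgins from 6.25 to 6.70, with a median of 6.35. The lowest knock-in virgin was mouse 376, and the other 6 lay between 6.10 and 6.55. Every day-18 value was above every virgin value in both genotypes. Member by member, the day-18 and virgin groups did not overlap for 75 genes that were higher and 2 that were lower in knock-in mice, where 12.6% and 7.65% of all genes separated in those directions. In wild-type mice they did not overlap for 72 genes that were higher and 1 that was lower, where 20.3% and 18.9% of all genes separated. Within slides 1, 2 and 3 the members' median difference was 1.45, 0.97 and 0.58 in knock-in and 1.18, 1.03 and 0.78 in wild-type mice. Slide 1 held 1 wild-type and slide 3 held 1 knock-in day-18 array.

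How far the genes moved depends on how arrays are scaled against each other. Under quantile normalization the members' median fell to 0.39 in both knock-in and wild-type mice, with 56 and 55 members higher, against a background of 21.0% and 18.2%, and 1 and 2 lower, against 18.5% in both. Scaled on 7 spike-in probes, RNAs added during labelling, it was 0.26 in knock-in and 0.03 in wild-type mice. Only 4 members were then higher in knock-in and 0 in wild-type mice (background 6.13% and 5.11%; limma, 0 at an adjusted p under 0.05), and 3 were lower in each genotype (background 52.1% and 61.0%), Rpl39l, Rps4l and Rpl7l1 in knock-in and Rpl39l, Rps4l and Rpl37 in wild-type mice. On that scale the median of all genes itself was −0.78 in knock-in and −0.90 in wild-type mice. The knock-in values include mouse 376, whose member median there was 3.14. The other knock-in virgins had 4.52 to 5.13, and knock-in day-18 glands 4.39 to 5.24. No spike-in difference without that mouse is given. With no scaling the members' median was 0.37 and 0.41, with 19 and 21 members higher (background 5.31% and 6.16%) and 2 lower in each genotype (background 33.1% and 28.1%), and the median of all genes was −0.67 and −0.52. Relative to the median of all genes, the members stood 1.04 higher in knock-in and 0.93 higher in wild-type mice under the percentile, spike-in and no scaling, and 0.30 and 0.39 higher under quantile normalization. The first 3 shift all genes of an array alike, so they give the same value by construction. The members' median was thus above that of all genes on the percentile scale and under quantile normalization, while most members had no call relative to the spike-in RNAs.

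**Figure D1:**
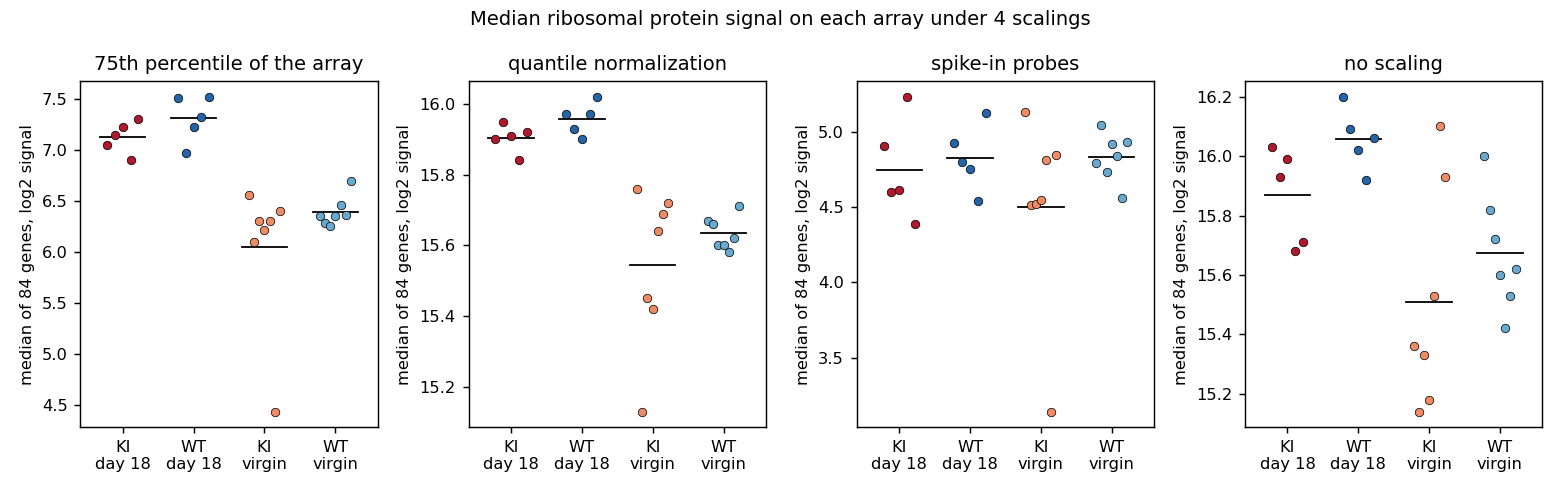
Median log2 signal of the 84 ribosomal protein genes on each array (points) and group mean (lines), for day-18 and virgin glands of knock-in (KI) and wild-type (WT) mice under 4 scalings. With the 75th percentile every day-18 array lies above every virgin array, while with spike-in probes the 4 groups overlap.

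The members' share of all signal is another measure, taken relative to the summed signal of the array, and so is also a scaling. Member probes took 9.86% to 11.5% of the summed signal in knock-in day-18 glands, against 5.01% to 8.65% in knock-in virgins. They took 10.8% to 12.7% in wild-type day-18 glands, against 7.34% to 8.53% in wild-type virgins. The groups did not overlap. The 7 milk protein genes took 1.64% to 1.94% of the signal in knock-in and 1.36% to 1.82% in wild-type glands at day 18.

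How tightly the members followed each other was read within groups and from their stage differences. Within groups, the median SD of a member was 0.40 (log2), and 0.09 once each array's member median was taken away; for all genes the same medians were 0.44 and 0.54. Without mouse 376 they were 0.20 and 0.09 for members, and 0.34 and 0.38 for all genes. The centring median was taken from the members themselves, so members and all genes are not compared on equal terms. These SDs lie within groups and do not measure the stage difference. The stage difference of 70 of 84 members in knock-in and 71 in wild-type mice lay within 0.3 of the members' median. The small-subunit median was 1.10 in knock-in and 0.95 in wild-type mice, and the large-subunit median 1.08 and 0.94.

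Rplp0, the scaffold protein of the ribosomal stalk and a common normalization gene, shows the pattern by mouse. In knock-in day-18 glands it had 7.33, 7.36, 7.41, 7.08 and 7.52, and in the 7 knock-in virgins it ran from 4.45, with a median of 6.17, to 6.54. In wild-type day-18 glands it had 7.79, 7.10, 7.49, 7.42 and 7.76, and in the 7 wild-type virgins it ran from 6.20, with a median of 6.33, to 6.69. Neither pair of groups overlapped, and the difference was 1.36 ± 0.25 (SE; limma adjusted p = 9.97e-05) in knock-in and 1.14 ± 0.25 (adjusted p = 0.000612) in wild-type mice. The other stalk proteins, Rplp1 and Rplp2, bind Rplp0 and help recruit elongation factors. Rplp2 differed by 0.83 ± 0.25 (adjusted p = 0.0109) in knock-in and 0.64 ± 0.25 (adjusted p = 0.0476) in wild-type mice. Rplp1 rose by 0.93 (adjusted p = 0.0106) in knock-in mice and did not pass in wild-type mice, with 0.60 (adjusted p = 0.0983).

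Among small-subunit proteins, Rps6, the substrate of the S6 kinases, had 6.78, 6.79, 6.68, 6.56 and 6.67 in knock-in day-18 glands, against 3.97 to 5.92 in knock-in virgins with a median of 5.73. It had 7.31, 6.73, 6.82, 6.92 and 7.22 in wild-type day-18 glands, against 5.63 to 6.08 in wild-type virgins with a median of 5.79. The groups did not overlap, with differences of 1.23 (adjusted p = 0.000206) in knock-in and 1.18 (adjusted p = 0.000335) in wild-type mice. Rpsa, the laminin receptor precursor that is also a 40S protein, rose by 1.16 and 0.87. Rpl5 and Rpl11, which carry 5S ribosomal RNA and bind Mdm2, rose by 1.19 and 1.00 in knock-in and by 1.13 and 0.84 in wild-type mice. All 18 members on a list of human Diamond-Blackfan anaemia genes, which may be incomplete, were called higher in both genotypes. Their medians were 1.07 and 0.92, beside medians of 1.09 and 0.94 over all members. Of all 84 members 80 and 77 were called higher, and of all genes 22.9% and 20.9%.

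Ribosomal protein genes are often used to normalize other measurements. All 8 members on the list of such genes (Rplp0, Rps18, Rpl13a, Rpl4, Rps29, Rpl19, Rpl32 and Rpl37a) were called higher at day 18 in both genotypes on the percentile scale, with a median of 1.11 in knock-in and 0.92 in wild-type mice. So were 80 and 77 of all 84 members, and 22.9% and 20.9% of all genes. The Rps29 probe is listed on another chromosome than its gene. Differences of the 8 genes ran from 0.80 for Rps29 to 1.36 for Rplp0 in knock-in mice, and from 0.71 for Rpl4 to 1.14 for Rplp0 in wild-type mice. On the spike-in scale their median was 0.27 and 0.00, and on that scale Rps29 was below 0 in knock-in mice, and Rpl4, Rps29, Rpl19 and Rpl37a in wild-type mice. The knock-in values include mouse 376, which was low on that scale.

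**Figure D2:**
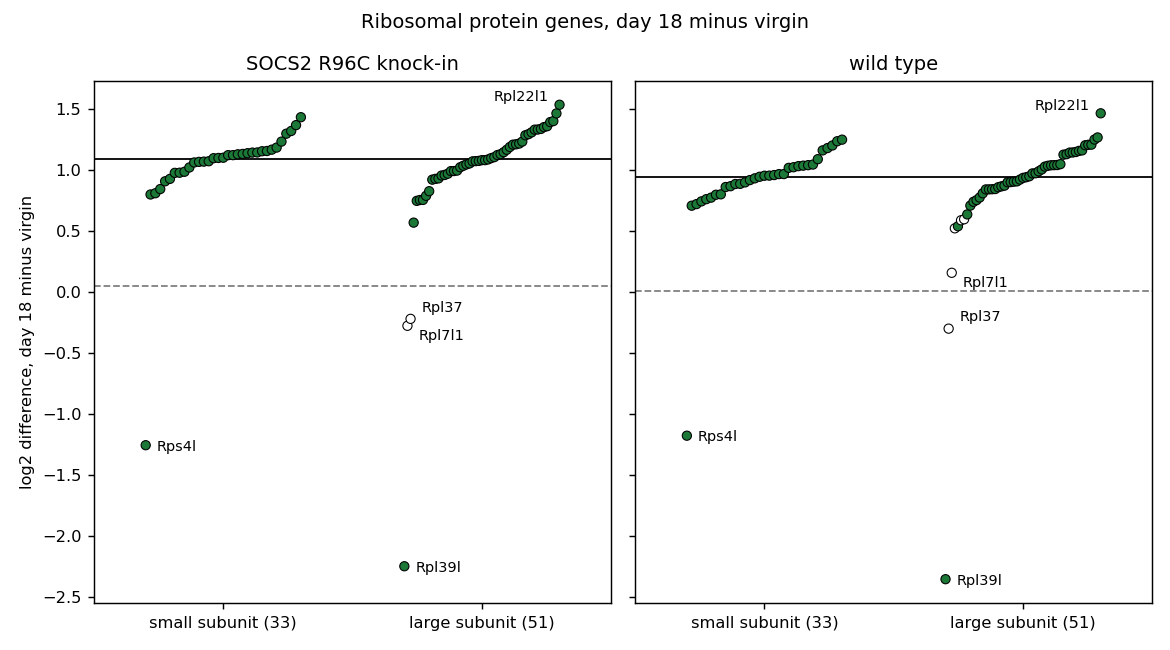
Log2 difference between day-18 and virgin glands for each of 84 ribosomal protein genes, ranked within each subunit, on the 75th-percentile scale. Filled points passed an adjusted p under 0.05, the solid line is the members' median (1.09 in knock-in and 0.94 in wild-type mice) and the dashed line is the median of all genes. Most points lie close to the solid line, and Rps4l and Rpl39l lie below 0.

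Which members departed from the rest? Each array's percentile-scale values were centred on its own member median. This removes a shift common to all genes of an array, but not the effect of quantile normalization. In knock-in mice 15 members were then higher and 9 lower than the bulk, and in wild-type mice 17 were higher and 8 lower. On that scale 4.84% of all genes were called higher and 64.0% lower in knock-in mice, and 5.33% higher and 59.2% lower in wild-type mice. Paralogs, second genes for a ribosomal protein, had the largest departures that passed. These were Rpl39l and Rps4l in both genotypes and Rpl7l1 in knock-in mice, with −1.36 (adjusted p = 0.0204). The Rpl7l1 value includes mouse 376, which had −4.06 on the centred scale. The median of the knock-in virgins there was −7.76, and knock-in day-18 glands ran from −9.54 to −7.78. Rpl37, a core protein, lay −1.30 and −1.21 from the member median and did not pass (adjusted p = 0.0585 and 0.0796).

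Rpl39l, a paralog of Rpl39 that in mice is known from the testis, went the other way. It had −1.69, −1.55, −3.20, −1.39 and −4.15 in knock-in day-18 glands, against −1.29 to 0.74 in knock-in virgins with a median of 0.13. It had −2.69, −2.79, −1.69, −3.28 and −2.50 in wild-type day-18 glands, against −1.84 to 1.16 in wild-type virgins with a median of −0.52. All knock-in day-18 values lay below the virgin values, and the wild-type groups overlapped in a narrow range. The difference was −2.25 ± 0.54 (adjusted p = 0.00166) in knock-in and −2.35 ± 0.54 (adjusted p = 0.00115) in wild-type mice, while Rpl39 is among the members that rose.

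Rps4l, whose name meets the rule but which RefSeq lists as a transcribed pseudogene, also fell. It had 0.88, 1.07, 1.12, 0.11 and 1.26 in knock-in day-18 glands, against 1.40 to 2.60 in knock-in virgins with a median of 2.24. It had 0.87, 0.88, 1.20, 1.26 and 1.45 in wild-type day-18 glands, against 2.07 to 2.72 in wild-type virgins with a median of 2.19. No groups overlapped, and the difference was −1.25 ± 0.21 (adjusted p = 4.59e-05) in knock-in and −1.18 ± 0.21 (adjusted p = 0.0001) in wild-type mice. On the spike-in scale Rps4l and Rpl39l were lower as well, with −2.09 and −3.08 in knock-in and −2.09 and −3.27 in wild-type mice. Under quantile normalization Rpl39l lost its call in knock-in mice, with −1.73 (adjusted p = 0.0652). The single Rps4l probe is shown so that it can be set beside the Rps4x probes. It is listed at chr6:148304018-148304077 on the plus strand of mm9, and its capitals mark its longest run shared with any Rps4x probe, 6 bases.
Rps4l: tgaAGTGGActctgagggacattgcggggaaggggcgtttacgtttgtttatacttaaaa
The Rpl39l probe likewise shares at most 6 bases in a row with the 5 Rpl39 probes. The probes were compared only with the paralogs' probes, so binding to the rest of the paralogs' transcripts was not tested.

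Other paralogs rose more than the bulk. Rpl22l1, the paralog whose mRNA is repressed by Rpl22 protein in mice, had 5.72, 5.94, 5.88, 5.52 and 5.91 in knock-in day-18 glands, against 2.71 to 4.80 in knock-in virgins with a median of 4.42. It had 5.99, 5.83, 6.18, 6.00 and 6.25 in wild-type day-18 glands, against 4.42 to 4.80 in wild-type virgins with a median of 4.59. The groups did not overlap, and its difference was the largest of the 84, at 1.53 ± 0.24 (adjusted p = 2.02e-05) in knock-in and 1.46 ± 0.24 (adjusted p = 3.75e-05) in wild-type mice. Relative to the member median it rose by 0.46 ± 0.11 (adjusted p = 0.000874) and 0.55 ± 0.11 (adjusted p = 0.000149). Rpl22 itself stayed near the bulk, with 0.03 and 0.06 relative to the member median (adjusted p = 0.807 and 0.58).

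Rpl36al, a paralog of the X-linked Rpl36a, rose by 1.46 (adjusted p = 1.11e-05) in knock-in and 1.20 (adjusted p = 0.000117) in wild-type mice, which is 0.38 and 0.29 above the member median (adjusted p = 0.00947 and 0.0462). Rps27l, a p53 target related to Rps27, rose by 1.14 (adjusted p = 0.000328) and 1.25 (adjusted p = 0.000138), and departed from the bulk in wild-type mice by 0.33 (adjusted p = 0.044) but not in knock-in mice, where the value was 0.06 (adjusted p = 0.69). The interaction of genotype and stage on that scale was −0.27 ± 0.20 (adjusted p = 1) for Rps27l. Rpl7l1, related to Rpl7, did not pass in either genotype, with −0.28 (adjusted p = 0.501) and 0.16 (adjusted p = 0.72), and without mouse 376 the knock-in value was −0.00053.

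Core proteins that rose more than the bulk in both genotypes included Rps16, Rpl10a, Rps26, Rpl15, Rpl3, Rplp0, Rpl6, Rpl12 and Rpl28. These departures rest on 1 probe per gene. Between probes of Rpl12 the stage differences ranged by 0.78 in knock-in and 0.80 in wild-type mice. The ranges were 0.53 and 0.71 for Rpl6, 0.63 and 0.30 for Rpl3, 0.30 and 0.45 for Rpl10a, and 0.36 and 0.21 for Rpl15. They were 0.09 and 0.18 for Rps16, and 0.04 and 0.03 for Rpl28. Rpl10a, a protein of the L1 stalk, stood 0.32 ± 0.07 (adjusted p = 0.000782) above the member median in knock-in and 0.29 ± 0.07 (adjusted p = 0.0019) in wild-type mice, and Rpl3, which lies near the peptidyl transferase centre, 0.31 (adjusted p = 0.00334) and 0.22 (adjusted p = 0.0344). Core proteins that rose less were Rpl23, Rpl30, Rpl13, Rplp2 and Rps27. Between probes the stage differences ranged by 0.38 in knock-in and 0.41 in wild-type mice for Rpl23. For Rpl13 the ranges were 0.31 and 0.42. They were 0.03 and 0.05 for Rps27, but both of its probes are listed on another chromosome than the gene. Rpl23 lay −0.33 ± 0.08 (adjusted p = 0.00174) from the member median in knock-in and −0.39 ± 0.08 (adjusted p = 0.000342) in wild-type mice. Rpl30 lay −0.51 (adjusted p = 0.00665) and −0.38 (adjusted p = 0.0397) from it. The probe that stands for Rpl30 was dim for a member, though well above background on every array. Its group means lay from −6.42 to −5.91 relative to the member median, so how well it reads Rpl30 is uncertain. Rpl13, Rpl23, Rplp1, Rpl7l1 and Rpl37 are the 5 members without a call in wild-type mice, and Rpl7l1 and Rpl37 the 2 without one in knock-in mice. The only Rpl37 probe was near background, well above it on 19 of 24 arrays, and it differed by −0.22 (adjusted p = 0.698) and −0.30 (adjusted p = 0.588).

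**Figure D3:**
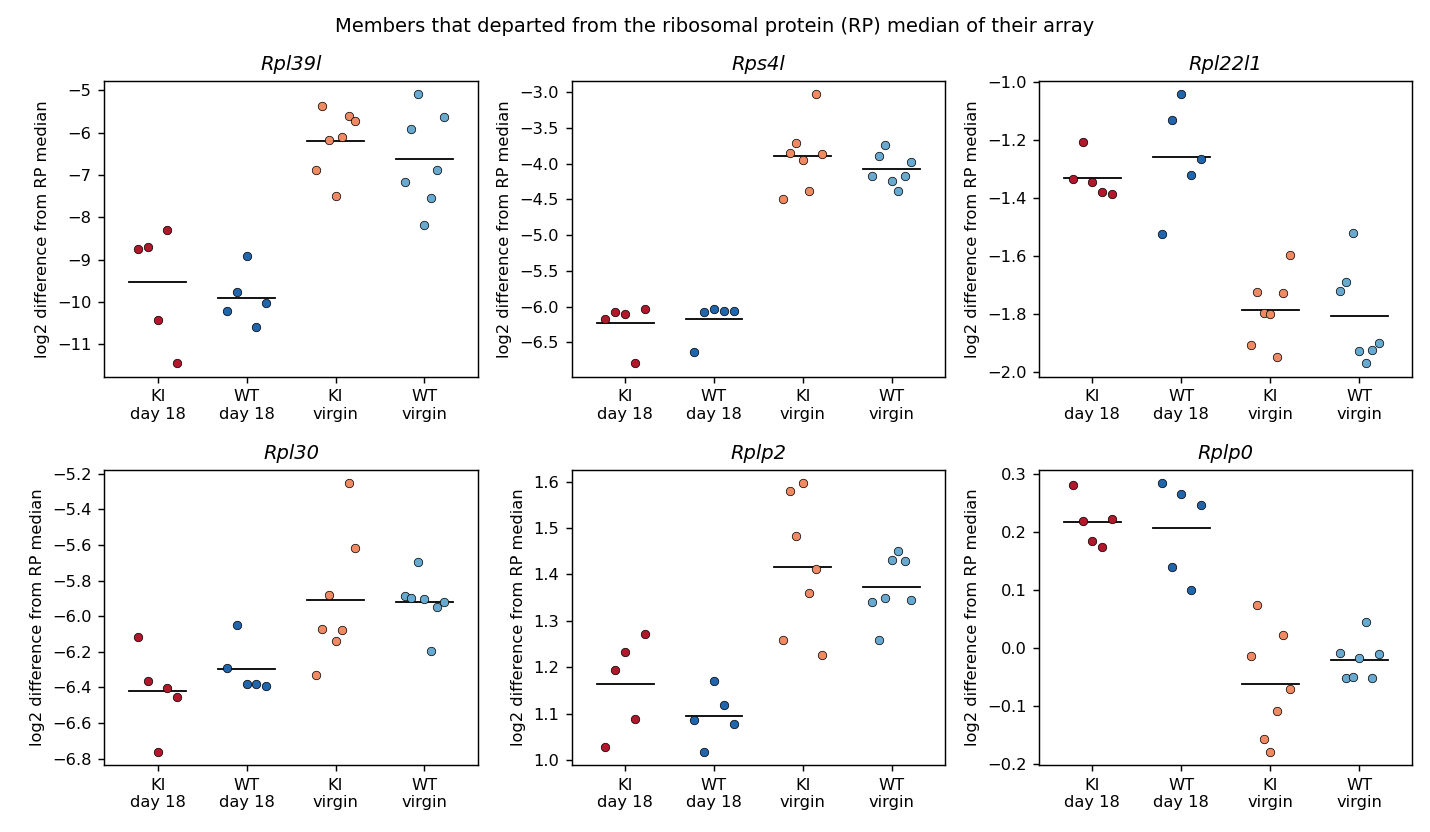
Log2 signal of 6 members minus the ribosomal protein median of the same array (points are mice, lines are group means), in day-18 and virgin glands of knock-in (KI) and wild-type (WT) mice. Rpl39l and Rps4l lie lower at day 18, Rpl22l1 and Rplp0 higher, and Rpl30 and Rplp2 somewhat lower.

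Within 1 gene, Rps24, probes moved in opposite directions. Rps24 is a 40S protein whose transcripts are alternatively spliced near their 3′ end. Of its 4 probes, which share at most 7 bases in a row, the downstream probe that stands for the gene rose by 1.06 (adjusted p = 0.00272 over all probes) in knock-in and 0.77 (adjusted p = 0.0242) in wild-type mice. A probe further upstream rose by 1.12 (adjusted p = 0.000391) and 1.02 (adjusted p = 0.000974). A probe whose mapped positions span 2321 bases, so that its 60 bases join parts far apart on the genome, fell by 1.40 (adjusted p = 2.57e-05) in knock-in and by 1.41 (adjusted p = 2.52e-05) in wild-type mice. The 3 probes are shown because the finding turns on which part of the transcript each reads. They lie on the plus strand of mm9 at chr14:25311190-25312666 for the upstream probe, chr14:25312695-25315015 for the spanning probe and chr14:25315021-25315080 for the downstream probe, and of the last 2 the first 30 bases are given.
upstream probe: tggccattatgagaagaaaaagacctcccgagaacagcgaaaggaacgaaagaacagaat
spanning probe: aatgttggtgctggcaaaaagTGAgtggag
downstream probe: ttgatgttttgctgtgatgtgcagatttct
The capitals mark the first stop triplet in the frame that begins at base 1, at bases 22 to 24. Whether that frame is the one translated was not checked against a protein sequence.

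By mouse, the spanning probe had 4.98, 4.94, 5.08, 4.96 and 5.13 in knock-in day-18 glands, against 4.96 to 6.75 in knock-in virgins with a median of 6.63. It had 5.21, 5.42, 5.21, 5.18 and 5.46 in wild-type day-18 glands, against 6.55 to 6.99 in wild-type virgins with a median of 6.67. The one virgin among the day-18 values was mouse 376, on which all 3 bright probes were low. The log2 ratio of the spanning to the upstream probe on the same array is not altered by a shift common to all its probes. Changes of the ratio can be read although its level cannot. It ran from −0.89 to −0.26 in knock-in day-18 glands, against 1.67 to 2.08 in knock-in virgins, and from −0.71 to −0.18 in wild-type day-18 glands, against 1.77 to 2.04 in wild-type virgins. The groups lay far apart, mouse 376 included, with a difference of −2.52 in knock-in and −2.43 in wild-type mice. Against the downstream probe the difference was −2.46 and −2.19. These ratios were chosen after the values were seen and are given with no test. The fourth, dim probe, inside the span, had −0.28 (adjusted p = 0.353) and −0.78 (adjusted p = 0.00743).

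**Figure D4:**
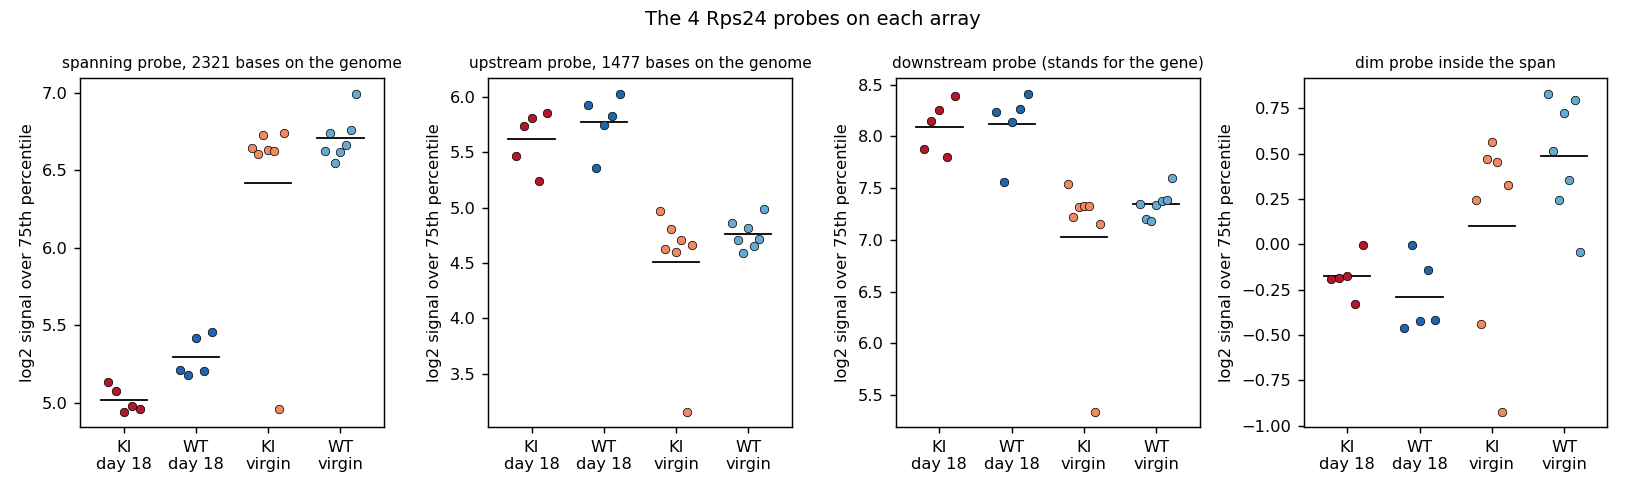
Log2 signal over the array's 75th percentile for each of the 4 Rps24 probes (points are mice, lines are group means), in day-18 and virgin glands of knock-in (KI) and wild-type (WT) mice. The probe spanning 2321 bases is lower at day 18, whereas the probe spanning 1477 bases and the downstream probe are higher.

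Most other genes with several probes gave one answer. Over 60 such genes the median range between probes of a gene was 0.16 in knock-in and 0.20 in wild-type mice. Probe by probe, 168 of 184 member probes were higher and 3 lower in knock-in mice (background 19.3% and 20.2% of all probes), and 163 were higher and 4 lower in wild-type mice (background 18.2% and 20.7%). Ribosomal protein genes have many retrotransposed copies, and 7 probes of Rpl13, Rpl36, Rps27 and Rps29 are listed on another chromosome than their gene. Both Rps27 probes and the one that stands for Rps29 are among them, so these 2 genes cannot be told apart from their copies. The 7 probes had a median wild-type difference of 0.76 (range 0.71 to 0.90), and the other member probes 0.97.

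Do the members share the pyrimidine start? In RefSeq's promoter table (GRCm38.p6) 65 of the 86 genes matched, with 77 annotated starts. A C followed by at least 4 letters that are each C or T, read on the gene's own strand, stood exactly at 18.2% of these starts, against 2.51% of all 32851 promoters in the table. Allowing it to start within 5 bases gave 41.6% and 17.1%, and within 20 bases 74% and 48.7%. Annotated starts can lie some bases off the true start, so no match says only that these letters are not there. Starts are shown with 10 bases before and 20 bases from the start onward, to set those of Rps6, Rps27 and Rpl15, with the motif exactly at the start (capitals), beside those of Rpl39 and 2 paralogs. Rpl39 and Rpl22l1 hold it within 5 bases of the start and Rpl39l within 20.
Rps6, chr4:86857348-86857377, minus strand: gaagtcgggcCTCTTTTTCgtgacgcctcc
Rps27, chr3:90213629-90213658, minus strand: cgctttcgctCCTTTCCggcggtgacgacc
Rpl15, chr14:18270967-18270996, minus strand: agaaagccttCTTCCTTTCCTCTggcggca
Rpl22l1, chr3:28805498-28805527, plus strand: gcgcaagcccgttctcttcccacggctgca
Rpl39, chrX:37085203-37085232, minus strand: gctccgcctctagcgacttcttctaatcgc
Rpl39l, chr16:10170218-10170247, plus strand: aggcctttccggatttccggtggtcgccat
The 14 tested members with the motif at a start had a median stage difference of 1.15 in knock-in and 0.95 in wild-type mice, beside 1.10 and 0.97 for the 49 without it.

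Genes that make or use ribosomes were read on the same scale, on which 22.9% of all genes were higher and 20.3% lower in knock-in mice, and 20.9% each way in wild-type mice. Of 20 elongation factors and other genes with TOP mRNAs, 16 were higher in each genotype, with medians of 0.99 in knock-in and 0.87 in wild-type mice. Eef2, the translocation factor, rose by 1.32 (adjusted p = 0.000333) and 1.13 (adjusted p = 0.00149), and Pabpc1, the poly(A)-binding protein, by 1.32 (adjusted p = 0.00049) and 1.17 (adjusted p = 0.00157). Fau, which encodes a ribosomal protein fused to a ubiquitin-like protein under a name the rule does not take, rose by 1.22 (adjusted p = 0.000733) in knock-in and 0.93 (adjusted p = 0.00728) in wild-type mice. Of 36 initiation factors, 22 and 19 were higher, with medians of 0.68 and 0.50.

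Of 53 ribosome biogenesis genes, 30 were higher and 1 lower in knock-in mice and 15 were higher and 0 lower in wild-type mice (limma; median 0.60 and 0.36). For this list and the next ones the background was 22.9% higher and 20.3% lower in knock-in and 20.9% each way in wild-type mice. Ddx21, a nucleolar helicase, rose by 1.76 (adjusted p = 1.5e-06) and 1.47 (adjusted p = 1.7e-05). Nucleolin (Ncl) rose by 0.90 (adjusted p = 0.00631) in knock-in mice and did not pass in wild-type mice, with 0.57 (adjusted p = 0.0801). Of 19 genes of RNA polymerase I and its factors, 9 and 6 were higher, with medians of 0.50 and 0.35. The 78 mitochondrial ribosomal protein genes, which serve a separate ribosome, had medians of 0.21 and 0.14, with 11 higher and 4 lower in knock-in and 10 higher and 2 lower in wild-type mice. Without mice 376, 198 and 184 all genes were called more often, 27.5% higher and 27.0% lower in knock-in and 31.2% higher and 28.8% lower in wild-type mice. Biogenesis then had 35 higher and 1 lower in knock-in and 30 higher and 2 lower in wild-type mice, and polymerase I 11 and 10 higher. The mitochondrial list had 14 higher and 16 lower in knock-in mice (median 0.01) and 28 higher and 8 lower in wild-type mice (median 0.14). Of 20 mTOR and Myc regulators, 6 were higher and 1 lower in knock-in and 4 were higher and 1 lower in wild-type mice, and without those 3 mice 7 and 3, and 10 and 2. That list includes Rps6, itself a ribosomal protein gene and counted among those higher in both genotypes on the main scale. Myc, a transcription factor known to drive ribosomal genes, rose by 1.69 ± 0.17 (adjusted p = 4.69e-08) and 1.50 ± 0.17 (adjusted p = 2.76e-07), and its relative Mycn fell by 1.94 (adjusted p = 0.000275) in wild-type mice. On the spike-in scale the medians of the biogenesis, polymerase I, initiation and mitochondrial lists were below 0 in both genotypes.

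**Figure D5:**
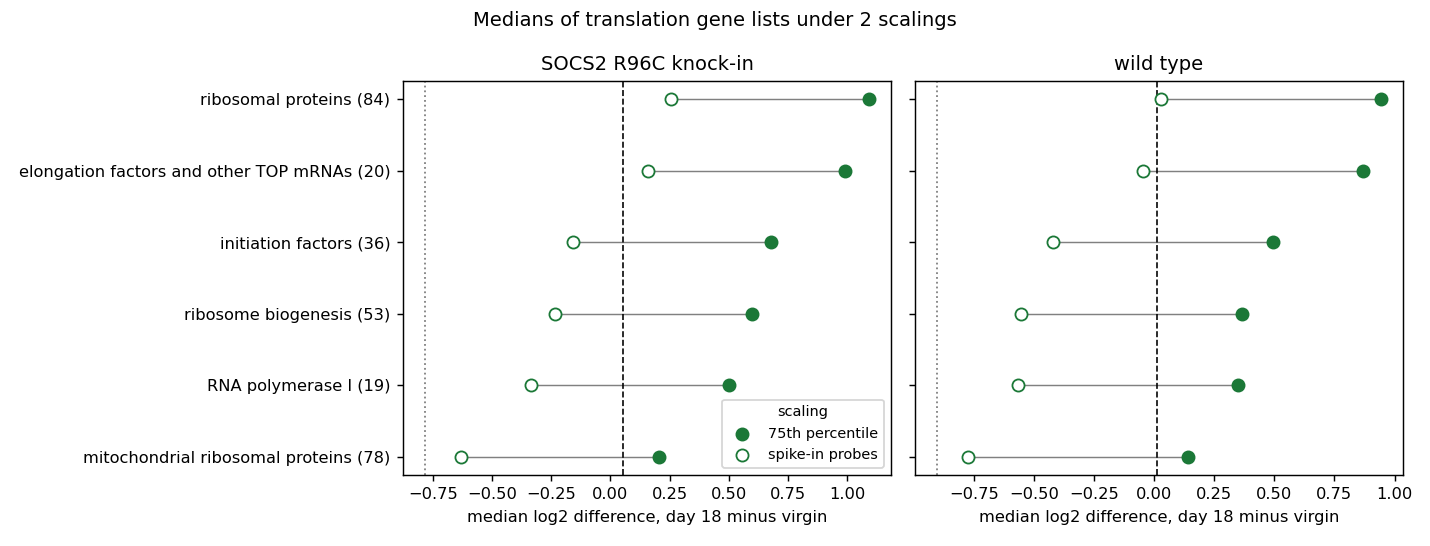
Median log2 difference between day-18 and virgin glands for 6 gene lists (number tested in brackets) on the 75th-percentile scale (filled) and the spike-in scale (open); vertical lines are the medians of all genes on the percentile scale (dashed) and the spike-in scale (dotted). Ribosomal proteins lie furthest right and mitochondrial ribosomal proteins furthest left on both scales in both genotypes.

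The tissue's makeup moved with stage, and in bulk RNA fewer cells of a type and less RNA per cell cannot be told apart. Of 17 luminal epithelial markers, 13 were higher in knock-in and 11 in wild-type mice (background 22.9% and 20.9%), and their mean level ran from 3.06 to 3.51 in knock-in and 2.94 to 3.39 in wild-type day-18 glands, against −3.82 to 1.42 in knock-in and −0.32 to 1.82 in wild-type virgins. Of 15 white adipocyte markers, 9 and 8 were lower (background 20.3% and 20.9%, also for the next lists), with levels of 3.43 to 4.69 and 4.44 to 4.89 at day 18, against 3.90 to 6.01 in knock-in and 5.56 to 5.85 in wild-type virgins. All 13 fibroblast and matrix markers were lower in both genotypes, with levels of 2.20 to 3.43 and 2.46 to 3.26 at day 18, against 3.05 to 5.19 and 4.56 to 5.20 in virgins. The lowest knock-in virgin on the adipocyte and fibroblast lists was mouse 376. The other knock-in virgins had 5.57 to 6.01 and 4.56 to 5.19. Of 10 macrophage markers, 9 were lower in both genotypes. The part of these changes in the ribosomal protein difference was not tested.

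Does the knock-in allele alter ribosomal protein genes? In virgins the members' median difference was −0.36, with 81 of 84 below 0, but 0 members were called (limma; background 0%). None had an unadjusted p under 0.05, where 802 of all 22382 genes did, a share at which few of 84 members would pass. The smallest p was 0.0667, for Rpl22, whose difference was −0.41 ± 0.21 (adjusted p = 0.702). The shift rests on mouse 376: without it the median was −0.09, and without mice 376, 198 and 184 it was −0.05. Within slides 1, 2 and 3 it was −0.64, −0.09 and −0.17, with mouse 376 on slide 1. At day 18 the median was −0.19, again with 81 of 84 below 0, 0 called (limma; background 0%) and 0 at an unadjusted p under 0.05, against 441 of all 22382 genes. Rps2, a 40S protein, had the smallest p there, 0.103, with −0.51 ± 0.30 (adjusted p = 1). Over 12 skeletal muscle markers the day-18 median genotype difference was 4.05, with 0 called. Their part in the members' difference was not tested. The median standard error of a member's genotype difference was 0.23 in virgins and 0.27 at day 18. The members share their array's shift, so a count of those below 0 carries little more than 1 value per array.

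The stage effect was not shown to differ between genotypes. In the interaction of genotype and stage 0 members were called (limma; background 0%), and 0 had an unadjusted p under 0.05, where 228 of all 22382 genes did. The members' median interaction was 0.16 with mouse 376 and −0.10 without it. Without that mouse 80 members were higher and 2 lower in each genotype, with a median stage difference of 0.83 in knock-in and 0.94 in wild-type mice. The background was then 29.6% higher and 25.6% lower in knock-in and 30.1% higher and 27.2% lower in wild-type mice.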

How the data were processed

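The deposited scanner files hold spot intensity values; per the file headers they were made with Agilent Feature Extraction 12.0.3.2, which subtracts background within an array and does not scale between arrays, with probe positions on mm9. The deposited series table holds log10 of the same processed signals, matching within 0.005, and was used as an alternative. The labels give the RNA both as poly(A) and, in the labelling protocol, as total RNA.

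Each array's log2 processed signal was taken minus the 75th percentile over its non-control spots, outlier spots were left out, spots of a probe were averaged, and 35117 probes passed the filter. Probes were named from the file's gene names, updated through RefSeq's table. Over all 22382 genes, limma 3.58.1 (R 4.3.3) estimated the means of the 4 groups, and p-values were adjusted by Benjamini-Hochberg. The fit was tested on simulated data. Labels do not say whether mice came from separate litters, so p-values measure the spread between these mice. The number of arrays limits the precision.

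The members, gene lists and tests were chosen with earlier results of these data known. Genes were named by a rule: paralogs, the 5 largest called differences in each direction (the 3 smallest p where few were called), the 3 largest departures from the member median in each direction, genes with probes called in opposite directions, fixed examples of roles, and up to 2 called genes of each other list. Members named beyond that rule were chosen after their values were seen. Alternatives covered scaling, background correction, the median spot signal, the deposited table, filters, probes of a gene, the slide, array weights, arrays left out and the groups fitted. Some items are not reported here.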

Additional observations from a re-analysis of the deposited data

Results flagged for a closer look

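In 34 of 136 tests of a group of mice, 1 mouse stood so far from its nearest neighbour, relative to the group's range, that it passed Dixon's limit for outliers, where chance flags about 1 in 20 groups. The members share each array's shift, so these are not independent. Knock-in virgin 376 accounts for 31 of them. Its ribosomal protein median was 4.43, and the nearest knock-in virgin had 6.10. It was low for Rpl10a (4.86), Rpl11 (4.95), Rpl13a (3.65), Rpl15 (3.57), Rpl19 (5.23), Rpl22 (3.06), Rpl22l1 (2.7), Rpl3 (4.73), Rpl32 (4.96), Rpl36a (4.03), Rpl36al (2.52), Rpl37a (5.47), Rpl4 (4.68), Rpl5 (3.31) and Rpl7a (3.89). It was also low for the stalk genes Rplp0 (4.45), Rplp1 (5.32) and Rplp2 (5.84), and for Rps16 (4.98), Rps18 (5.65), Rps2 (3.63), Rps24 (5.34), Rps26 (4.41), Rps27l (2.96), Rps29 (5.35), Rps6 (3.97), Rps7 (3.17) and Rpsa (4.69). It was high for the dim probes of Rpl37 (−2.23) and Rpl7l1 (0.369). The array also had the highest negative-control signal of the 24, 332, and its part in these values was not tested. Wild-type virgin 369 was high for Rpl37a (7.78), Rpl7a (6.14) and Rps29 (7.61).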

How the results depend on the processing

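No paired analysis was possible because no animal number is shared between groups. The stage differences depended mainly on scaling; the cause was not tested. Under quantile normalization the members' median was 0.386 in knock-in and 0.388 in wild-type mice. With spike-in scaling 7 members were called in knock-in and 3 in wild-type mice (medians 0.257 and 0.0257), and with no scaling 21 and 23 (0.37 and 0.412). Centring on the members' own median, which removes their shared shift by construction, left 24 and 25 called. Among all genes, spike-in scaling called 1371 higher and 11657 lower in knock-in and 1143 and 13657 in wild-type mice, no scaling 1188 and 7405, and 1379 and 6291, and the members' own median 1084 and 14317, and 1194 and 13256, beside 5117 and 4541, and 4686 and 4671, on the main scale. Within slide 3, with 1 knock-in day-18 array, the knock-in median was 0.576.

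With spike-in scaling 8 of 82 called members in knock-in and 30 of 79 in wild-type mice had the opposite sign. The knock-in values on that scale include mouse 376, whose member median there was 3.14. Among the genes named by rule, knock-in values were −0.00835 for Rplp2 and −0.0354 for Rps29, and wild-type values were −0.073 for Rpl11, −0.164 for Rpl19, −0.0103 for Rpl37a, −0.209 for Rpl4, −0.281 for Rplp2, −0.143 for Rps24, −0.196 for Rps29 and −0.0498 for Rpsa. Centring on the members' median puts about as many members below 0 as above it by construction, and is no test of direction. There knock-in values were −0.0842 for Rpl11, −0.0566 for Rpl19, −0.11 for Rpl4, −0.149 for Rplp1, −0.253 for Rplp2, −0.0184 for Rps24 and −0.28 for Rps29. On that scale wild-type values were −0.0705 for Rpl11, −0.162 for Rpl19, −0.00771 for Rpl37a, −0.206 for Rpl4, −0.318 for Rplp1, −0.278 for Rplp2, −0.141 for Rps24, −0.194 for Rps29 and −0.0473 for Rpsa. Under quantile normalization Rps29 was −0.0292 in knock-in mice, and as the mean of its probes Rps24 was −0.1 in wild-type mice. A further 45 knock-in and 76 wild-type entries of single genes lost their call, and 2 and 6 gained one.

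With each mouse left out in turn, 79 to 82 members were called in knock-in mice, with medians of 0.831 (without knock-in virgin 376) to 1.17. In wild-type mice 71 (without wild-type day-18 mouse 235) to 82 were called, with medians of 0.883 to 1.02. The genotype median ran from −0.432 to −0.0916 (without mouse 376) in virgins and from −0.287 to −0.124 at day 18, and the interaction median from −0.0989 (without mouse 376) to 0.235, with 0 members called throughout. Scaling over probes in place of spots was chosen after seeing the data. Near background, as for Rpl37, values are limited by signal.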

Other observations

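Probes of 6 further genes differed by more than 0.7 in both genotypes, against a median range of 0.16 in knock-in and 0.20 in wild-type mice. The stage differences of the probes of Rps15a spanned 1.07 in knock-in and 1.64 in wild-type mice, those of Rps19 spanned 0.81 and 1.03, and those of Rps20 spanned 1.15 and 0.99. In the large subunit the ranges were 1.13 and 0.80 for Rpl26, 0.87 and 0.88 for Rpl7a, and 0.78 and 0.80 for Rpl12. In none of these 6 genes were probes called in opposite directions in either genotype, and Rps24 was the 1 member where they were. On the 65 member probes printed in 10 spots, the median SD between spots of an array was 0.03 (log2), and the highest array median, 0.07, belonged to knock-in virgin 376.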
